A study of Mus musculus with 4 samples.

Results

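The receptor chains through which a cell reads interferons and the cytokines of the gp130 family were followed across all 4 RNA-seq libraries of the series. The set comprised 10 of the 27179 genes counted, chosen by name: Ifngr1 and Ifngr2, Ifnar1 and Ifnar2, Il10rb, Il6st, Il6ra, Lifr, Osmr and Il13ra1. Each gene was found in the count table through its NCBI gene ID. These genes, and the lists used below, were chosen with earlier results of these data known. Il10rb belongs to the same receptor class as the interferon chains, and Il13ra1 is a class I chain for interleukin-13 and interleukin-4 that does not use gp130.

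The libraries were made from wild-type MC38 cells, an established mouse line labelled as colon cancer. A control library and an IFN-γ library were made under normoxic conditions, and a further control library and IFN-γ library under hypoxic conditions. The study's general methods give 5 ng/mL IFN-γ for 24 h, 20% oxygen for normoxia and 1.5% oxygen for hypoxia, without restating these settings for the sequenced cultures, and the time spent in hypoxia was not given in the sources used here. Each condition was represented by 1 library, so no spread between replicate cultures was measured.

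Cytokine receptors of these classes have no kinase activity of their own. They assemble from a chain that binds the ligand and a chain that carries the signal, and the Janus kinases bound to their tails phosphorylate STAT proteins. IFN-γ is read by Ifngr1 with Ifngr2, type I interferons are read by Ifnar1 with Ifnar2, and the gp130 family acts mainly through STAT3. Which chains a cell makes therefore sets which of these cytokines it can read.

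Library totals ran from 34302971 to 34537939 counts, a ratio of 1.007 between the largest and the smallest, and 13580 genes passed the filter on low counts. All 10 genes of a list of known IFN-γ response genes rose with IFN-γ, with a median log2 change of 2.55, and all 10 of a list of hypoxia response genes rose with hypoxia, with a median of 1.29. Although the line is labelled as colon cancer, epithelial markers were low or absent. Epcam had at most 2 counts in any library and Cdh1 and Cdx2 had 0. Of 10 epithelial markers 4 passed the filter, led by Krt8 with 48 to 90 counts, and their summed level was 3.27 to 3.81 CPM (counts scaled to library size). All 6 mesenchymal markers passed, with a summed level of 2680 to 2990 CPM that came mostly from Vim (74838 to 81307 counts) and Fn1, while Col1a1 had 29 to 66 counts and Pdgfrb 50 to 93. Of 8 leukocyte markers 4 passed, with a summed level of 7.79 to 10.5 CPM, mostly from Cd68 (170 to 236 counts) and Lyz2 (69 to 96). Adgre1 and Itgam had 0 counts in every library, and Ptprc had at most 12. Of 3 endothelial markers 2 passed, with a summed level of 0.758 to 1.44 CPM. In such bulk libraries fewer cells with a transcript and less of it per cell cannot be told apart.

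Changes with each stimulus were taken from an additive model of all 4 libraries, with 1 term for IFN-γ and 1 for hypoxia, fitted by the quasi-likelihood test of edgeR. P-values were adjusted by the Benjamini-Hochberg method over all genes tested, and a gene was called at an adjusted p under 0.05. The departure from additivity stood in for replicate error. All 10 receptor genes passed the filter. With IFN-γ, 3 of them rose (Il13ra1, Osmr and Il6ra) and 1 fell (Ifngr1), beside 4.76% of all tested genes raised and 1.10% lowered (5.86% in either direction). Since the set was chosen with earlier results known, such shares do not measure how unusual its counts were. The median log2 change with IFN-γ was 0.126 over the receptor genes and -0.011 over all genes tested. With hypoxia, 2 of the 10 rose (Il13ra1 and Ifngr1) and 0 fell, beside 8.21% raised and 6.83% lowered among all tested genes (15.0% in either direction). By DESeq2, 2 rose and 0 fell with IFN-γ, and 1 rose and 0 fell with hypoxia. The count of 0 lowered by hypoxia was also 0 at an unadjusted p under 0.05. Median log2 changes with hypoxia were 0.113 over the receptor genes and 0.005 over all genes tested.

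**Figure D1:**
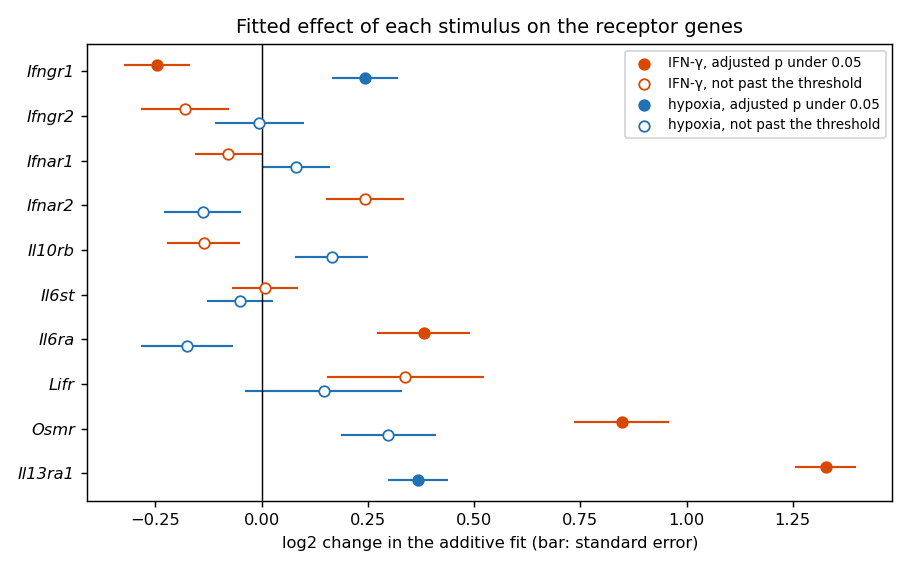
Additive log2 changes of the 10 receptor genes with IFN-γ and with hypoxia, from edgeR, with error bars of 1 standard error from the fit. Il13ra1 and Osmr lie farthest to the right with IFN-γ, at 1.33 and 0.85, and the hypoxia changes all lie between -0.18 and 0.37.

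Single pairs of libraries were also compared by log2 ratios with 95% intervals that cover counting error only and say nothing of variation between cultures. The members' intervals were set beside those of the 10443 genes with 100 or more counts in each library, called well counted here. With IFN-γ the interval excluded 0 for 6 of the 10 receptor genes under normoxia, beside 38.7% of well-counted genes, and for 7 of 10 under hypoxia, beside 43.0%. With hypoxia it did so for 4 of 10 without IFN-γ, beside 52.4%, and for 7 of 10 with it, beside 53.0%. With both stimuli against the untreated library the count was 5 of 10, beside 54.2%.

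Because 65.5% of the values of 1 to 10 counts in the table were even, many fragments may have entered as 2 reads, and intervals from counts divided by 2 were computed as well. In the order of pairs above these excluded 0 for 5, 5, 3, 5 and 2 of the 10 receptor genes, beside 23.7%, 28.3%, 37.8%, 38.4% and 40.9% of well-counted genes. With IFN-γ under normoxia the 5 genes were Ifngr1, Ifnar2, Il6ra, Osmr and Il13ra1, and under hypoxia Ifngr1, Ifnar1, Lifr, Osmr and Il13ra1.

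The genomic positions of the chains come from the GENCODE annotation of mouse GRCm38. Ifnar2, Il10rb, Ifnar1 and Ifngr2 stand in this order on the plus strand of chromosome 16, and Osmr and Lifr are neighbours on chromosome 15. The promoter sequences below, from RefSeq (GRCm38.p6), cover the 250 bases before the annotated start of the gene with the largest changes (Il13ra1), of the gene whose IFN-γ change differed most between the oxygen levels (Ifnar2), and of the chain that binds IFN-γ (Ifngr1). Capitals mark matches to the STAT family motif TTCNNNGAA in Ifnar2 and to the core of the hypoxia response element, ACGTG or GCGTG on either strand, in Ifngr1. No match to either motif, nor to the core of the interferon-stimulated response element, searched as GAAA repeated after any 2 bases on either strand, was found in the Il13ra1 window, which therefore has no capitals.
Il13ra1, chrX:36111858-36112107, plus strand: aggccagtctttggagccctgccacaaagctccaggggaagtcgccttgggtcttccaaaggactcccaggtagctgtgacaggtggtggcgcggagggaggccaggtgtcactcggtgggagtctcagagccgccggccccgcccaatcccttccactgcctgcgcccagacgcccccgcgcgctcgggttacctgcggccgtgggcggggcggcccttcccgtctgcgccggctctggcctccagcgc
Ifnar2, chr16:91372533-91372782, plus strand: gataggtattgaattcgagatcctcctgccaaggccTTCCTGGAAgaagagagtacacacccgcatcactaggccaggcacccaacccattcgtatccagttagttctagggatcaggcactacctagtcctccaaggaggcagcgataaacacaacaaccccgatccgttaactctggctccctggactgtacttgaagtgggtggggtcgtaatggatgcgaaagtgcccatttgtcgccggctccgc
Ifngr1, chr10:19591699-19591948, plus strand: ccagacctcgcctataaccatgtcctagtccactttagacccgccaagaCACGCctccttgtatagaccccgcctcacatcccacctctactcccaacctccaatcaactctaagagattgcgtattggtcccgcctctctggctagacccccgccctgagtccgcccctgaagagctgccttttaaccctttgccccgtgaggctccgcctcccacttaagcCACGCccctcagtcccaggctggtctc

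Promoter windows were at hand for 9 of the 10 receptor genes, as 10 windows, since Lifr has 2 annotated starts. The window of Osmr is counted among them but lies inside the first exon of that gene in the GENCODE annotation, whose start is farther upstream than that of RefSeq, so it is not shown. TTCNNNGAA occurred in 1 of these 9 genes, Ifnar2, with its match TTCCTGGAA 214 bases before the start, and in 7.02% of 32851 mouse promoter windows of the same length. The interferon-stimulated response element core occurred in 0 of the 9 and in 2.98% of all windows. The hypoxia response element core occurred in 4 of the 9 genes, in 4 of their 10 windows, and in 38.6% of all windows. Its matches began 201 and 27 bases before the start of Ifngr1 and 130 and 51 bases before that of Ifnar1. Those of Il6ra began 24 and 23 bases before its start, where they overlap. Lifr had a match 158 bases before its first start, and its second window had no match. These are matches of letters within these windows and say nothing of binding. A window without a match says only that these letters are not in it.

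Levels of the different genes were compared per kilobase of annotated exon and scaled to library size (RPKM). Over the 4 libraries Il13ra1 had the highest mean level, 17.0 RPKM, with a range of 8.60 to 27.7, and Ifngr1 followed at 12.5 (10.4 to 14.6). The order of these genes turned with treatment, as Ifngr1 was the higher in control normoxia (12.5 against 8.60) and control hypoxia (14.6 against 10.7), and Il13ra1 in both IFN-γ libraries. Il10rb followed at 6.54 (5.85 to 7.21), Ifnar2 at 6.30 (5.49 to 7.77) and Ifnar1 at 5.53 (5.31 to 6.05), and each of these overlapped the next. Ifngr2, at 3.99 (3.65 to 4.33), lay below all 3 and above Il6st, at 3.36 (3.25 to 3.49). The chains that pair with gp130 had the lowest levels, with Il6ra at 1.58 (1.35 to 1.97), Osmr at 1.08 (0.727 to 1.59) and Lifr at 0.384 (0.328 to 0.482). The ranges of Il6ra and Osmr overlapped, and Lifr lay below every other receptor gene in every library. For comparison, the median mean level of the 12381 tested genes with an exon length was 6.33 RPKM, and Lifr exceeded 11.4% of them. These ranges span the 4 conditions and not replicates. The exon length used matters for the order, since with the longest transcript in place of all exons Osmr stood at 2.38 RPKM, above Il6ra at 1.58, Ifnar1 at 8.40, above Ifnar2 at 6.88, and Il6st at 4.30, above Ifngr2 at 4.06.

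**Figure D2:**
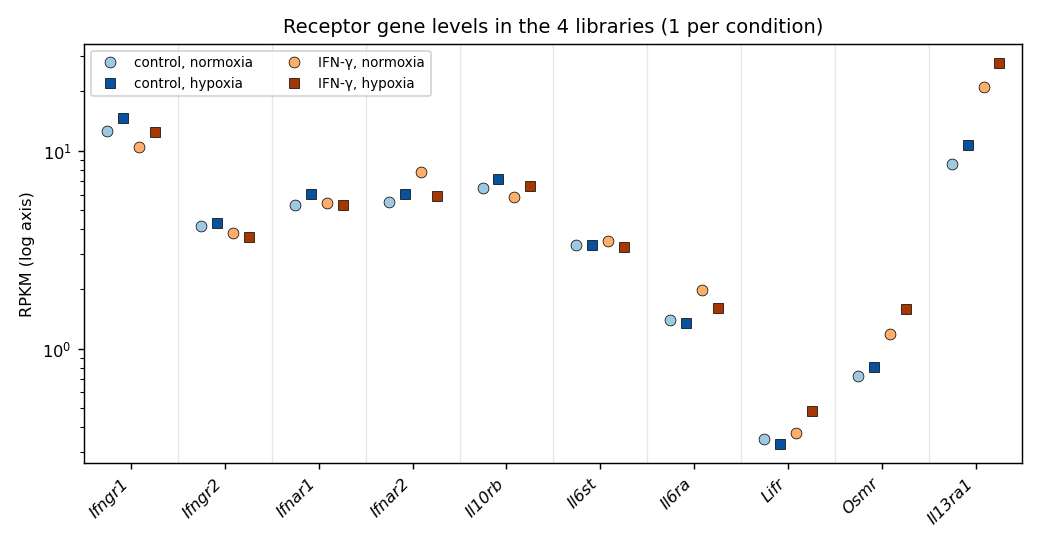
Level of each receptor gene in the 4 libraries in RPKM on a log axis, with 1 point for each library. Il13ra1 spreads from 8.60 to 27.7 RPKM with both IFN-γ libraries above both control libraries, while Il6st stays between 3.25 and 3.49.

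The IFN-γ receptor itself moved little. Ifngr1 (NCBI gene 15979, chr10:19591949-19610229, plus strand), the chain that binds IFN-γ and carries Jak1, had 1229 counts in control normoxia, 1441 in control hypoxia, 1018 in IFN-γ normoxia and 1214 in IFN-γ hypoxia. At each oxygen level the IFN-γ library was lower than its control, and within each treatment the hypoxia library was higher. Ifngr1 fell with IFN-γ by 0.25 on the log2 scale (SE 0.078, 0.843-fold) at an adjusted p of 0.0308 by edgeR's quasi-likelihood test. This call was kept in 1 of 7 alternative fits, with adjusted p from 0.0333 to 1.0, so it depended on the fit used. With hypoxia Ifngr1 rose by 0.24 (SE 0.078, 1.18-fold) at an edgeR adjusted p of 0.0167, a call kept in 3 of the 7 alternatives (0.0263 to 0.388). With both stimuli together its level differed from that of the untreated library by -0.00 log2, with a 95% counting interval of -0.12 to 0.11.

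Ifngr2 (NCBI gene 15980, chr16:91547072-91565623, plus strand), the signalling chain that carries Jak2, had 542 counts in control normoxia, 564 in control hypoxia, 496 in IFN-γ normoxia and 471 in IFN-γ hypoxia. Both IFN-γ libraries were below both controls, but the log2 change with IFN-γ of -0.18 (SE 0.104) did not pass the test, with an edgeR adjusted p of 0.471. Its change with hypoxia was -0.00, with an edgeR adjusted p of 0.985. Per length, Ifngr1 exceeded Ifngr2 in every library, by a ratio of 3.0 in control normoxia, 3.38 in control hypoxia, 2.72 in IFN-γ normoxia and 3.41 in IFN-γ hypoxia. This ratio was thus higher under hypoxia in both treatments.

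Of the 10 genes, a chain of the type I interferon receptor showed the largest difference in its IFN-γ change between the oxygen levels. Ifnar2 (NCBI gene 15976, chr16:91372783-91405589, plus strand), the chain that binds type I interferon tightly, had 633 counts in control normoxia, 691 in control hypoxia, 887 in IFN-γ normoxia and 675 in IFN-γ hypoxia. The IFN-γ normoxia library stood above the other 3, which lay close together. Ifnar2 differed with IFN-γ by 0.50 (0.35 to 0.65) under normoxia and by -0.02 (-0.18 to 0.13) under hypoxia. The difference between these changes, hypoxia minus normoxia, was -0.52 (-0.73 to -0.31).

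Such a difference was not rare when judged by counting error alone. The interval excluded 0 for 34.5% of the 10443 well-counted genes. A difference of -0.5 or lower was reached by 0.862% of them and one of 0.5 or more in size by 2.02%. Ifnar2 was picked as the largest difference of the 10 receptor genes, so these shares per gene do not measure how unusual it was. With the counts divided by 2 the Ifnar2 interval was -0.82 to -0.22, and 20.1% of the genes had an interval that excluded 0. With 1 library per condition the difference itself was not tested. In the additive model, Ifnar2 had a log2 change of 0.24 with IFN-γ (SE 0.0913, edgeR adjusted p = 0.106) and of -0.14 with hypoxia (edgeR adjusted p = 0.346), and neither passed.

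Ifnar1 (NCBI gene 15975, chr16:91485238-91507441, plus strand), which carries Tyk2, had 1093 counts in control normoxia, 1242 in control hypoxia, 1105 in IFN-γ normoxia and 1083 in IFN-γ hypoxia. The control hypoxia library was the highest and the other 3 lay close together. Its log2 changes of -0.08 with IFN-γ and 0.08 with hypoxia did not pass, at edgeR adjusted p of 0.806 and 0.572. The change with IFN-γ differed between hypoxia and normoxia by -0.21 (-0.38 to -0.05), an interval that included 0 once the counts were divided by 2. Per length, the ratio of Ifnar1 to Ifnar2 was 0.968 in control normoxia, 1.01 in control hypoxia, 0.698 in IFN-γ normoxia and 0.899 in IFN-γ hypoxia. The ratio was thus lowest with IFN-γ under normoxia. Which chain is the higher depends on the length used, since with the longest transcripts the ratios were 1.35, 1.40, 0.971 and 1.25 in the same order.

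Il10rb (NCBI gene 16155, chr16:91406164-91425834, plus strand) is the shared second chain of the receptors for interleukin-10, interleukin-22 and the lambda interferons. It had 854 counts in control normoxia, 949 in control hypoxia, 764 in IFN-γ normoxia and 862 in IFN-γ hypoxia. Its log2 changes of -0.14 with IFN-γ and 0.16 with hypoxia did not pass (edgeR adjusted p = 0.538 and 0.198). Exons of Il10rb and of Ifnar2 overlap those of Gm21970 on the same strand, over 569 and 315 bases, and how such reads were counted was not given in the sources used here. Of the 31-base words in their transcripts, 14.9% for Il10rb and 8.50% for Ifnar2 also occur in transcripts of other genes.

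**Figure D3:**
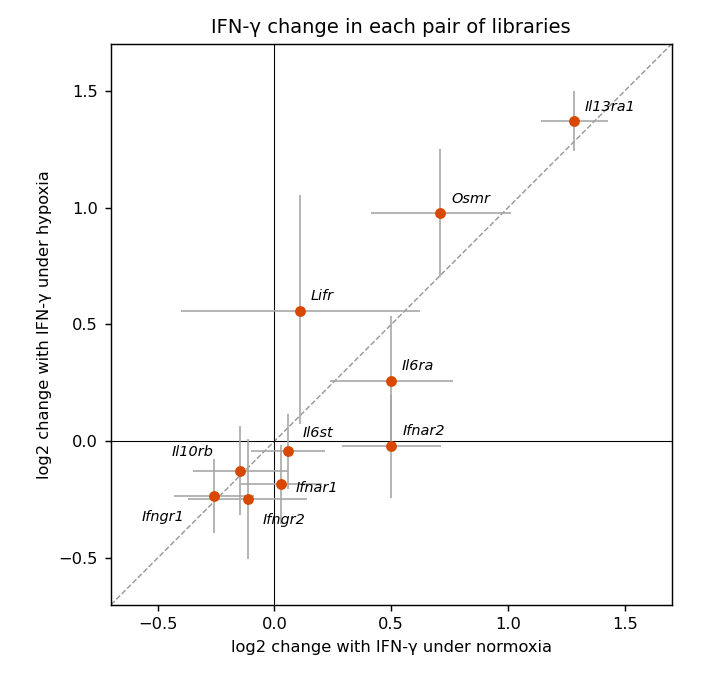
Log2 change with IFN-γ of each receptor gene under normoxia (horizontal axis) and under hypoxia (vertical axis), 1 pair of libraries each. Bars are 95% intervals for counting error only, computed from counts divided by 2. The dashed diagonal marks equal changes. Ifnar2 lies farthest from the diagonal, at 0.50 under normoxia and -0.02 under hypoxia, whereas Il13ra1 lies near it at 1.28 and 1.37.

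The 4 interferon and Il10rb chains of chromosome 16 lie within 193 kb, not counting their direct neighbours. None of the 4 passed the test with either stimulus. Tmem50b, the protein-coding gene beyond Ifngr2, had 772, 868, 818 and 790 counts in control normoxia, control hypoxia, IFN-γ normoxia and IFN-γ hypoxia, with a log2 change of -0.01 with IFN-γ. Olig1, beyond Ifnar2, had 0 counts in every library. If counts are independent, this allows up to 3 counts, or 0.0876 CPM in the IFN-γ hypoxia library.

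Among the gp130 receptors, the shared chain was the steadiest gene of the set, and Osmr and Il6ra rose with IFN-γ while Lifr passed with neither stimulus. Il6st (NCBI gene 16195, chr13:112464070-112510086, plus strand) encodes gp130, the signalling chain for interleukin-6, interleukin-11, LIF, oncostatin M and their relatives. It had 1288 counts in control normoxia, 1286 in control hypoxia, 1329 in IFN-γ normoxia and 1237 in IFN-γ hypoxia, and its highest level was 1.07 times its lowest. Its log2 changes were 0.01 with IFN-γ (SE 0.0771, edgeR adjusted p = 0.992) and -0.05 with hypoxia (edgeR adjusted p = 0.735).

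Osmr (NCBI gene 18414, chr15:6813577-6874969, minus strand) pairs with gp130 in the oncostatin M receptor. It had 305 counts in control normoxia, 338 in control hypoxia, 494 in IFN-γ normoxia and 659 in IFN-γ hypoxia, so that both IFN-γ libraries were above both controls. Osmr rose with IFN-γ by 0.85 (SE 0.112, 1.80-fold) at an edgeR adjusted p of 2.75e-12. The single-pair changes were 0.71 (0.50 to 0.92) under normoxia and 0.98 (0.78 to 1.17) under hypoxia, and their difference of 0.27 had an interval of -0.01 to 0.55. Its log2 change with hypoxia was 0.30 (SE 0.112) and did not pass, at an edgeR adjusted p of 0.0504. The single-pair changes with hypoxia were 0.15 (-0.08 to 0.38) without IFN-γ and 0.42 (0.25 to 0.59) with it. From counts divided by 2 the latter interval was 0.17 to 0.66. With both stimuli its level was 2.18-fold that of the untreated library. The IFN-γ call was lost in 1 of the 7 alternatives, edgeR without the oxygen term, at an adjusted p of 0.0809.

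Il6ra (NCBI gene 16194, chr3:89864059-89913196, minus strand) binds interleukin-6 before gp130 joins the complex. It had 418 counts in control normoxia, 403 in control hypoxia, 585 in IFN-γ normoxia and 478 in IFN-γ hypoxia. Both IFN-γ libraries were higher than both controls, the normoxic one most. Il6ra rose with IFN-γ by 0.38 (SE 0.109, 1.30-fold) at an edgeR adjusted p of 0.0100, a call kept in 4 of the 7 alternatives, with adjusted p from 0.0294 to 0.887. The single-pair change under hypoxia was 0.26 (0.06 to 0.45), and its interval included 0 (-0.02 to 0.54) once the counts were divided by 2. Its change with hypoxia of -0.18 did not pass, at an edgeR adjusted p of 0.306. The single-pair changes with hypoxia were -0.05 (-0.25 to 0.15) without IFN-γ and -0.29 (-0.47 to -0.11) with it. From counts divided by 2 the latter interval was -0.54 to -0.04. Il6ra exons share 242 bases with the antisense gene Gm42809, and whether the counting used the strand was not given in the sources used here.

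Lifr (NCBI gene 16880, chr15:7090614-7197489, plus strand) pairs with gp130 in the LIF receptor. It had 130 counts in control normoxia, 122 in control hypoxia, 139 in IFN-γ normoxia and 178 in IFN-γ hypoxia. The IFN-γ hypoxia library stood above the other 3. The log2 changes of 0.34 with IFN-γ (SE 0.184, edgeR adjusted p = 0.413) and 0.15 with hypoxia (edgeR adjusted p = 0.675) did not pass. At these counts, the lowest of the set, the single-pair change under hypoxia was 0.56 with an interval from 0.22 to 0.90, and the change under normoxia was 0.11 (-0.24 to 0.47).

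Because Il6st was near constant, the ratios of its partners to it followed the partners. Per length, Osmr to Il6st was 0.217 in control normoxia, 0.241 in control hypoxia, 0.341 in IFN-γ normoxia and 0.488 in IFN-γ hypoxia. The ratio of Il6ra to Il6st was 0.417, 0.402, 0.565 and 0.496 in the same order, and that of Lifr to Il6st was 0.104, 0.0977, 0.108 and 0.148. gp130 exceeded each of these partners in every library. Osmr exceeded Lifr in every library, by ratios of 2.09, 2.46, 3.16 and 3.29. With the longest transcripts Osmr to Il6st was 0.374, 0.415, 0.587 and 0.842, and Osmr to Lifr was 4.13, 4.87, 6.25 and 6.51, in the same order.

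**Figure D4:**
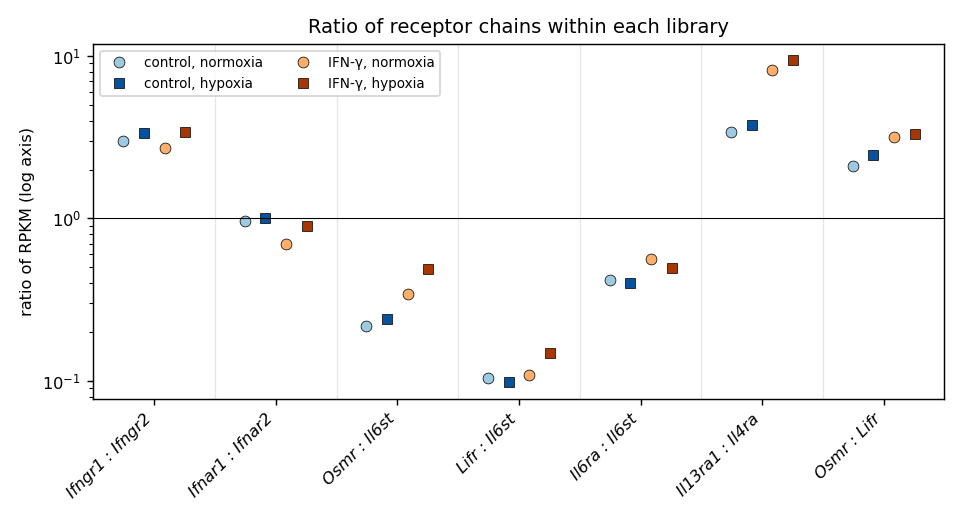
Per-length ratios of receptor chains that work as pairs, and of Osmr to Lifr, which each pair with gp130, in the 4 libraries on a log axis. The ratio of Il13ra1 to Il4ra separates the IFN-γ libraries (8.23 and 9.44) from the controls (3.40 and 3.76), and that of Osmr to Il6st is highest with both stimuli at 0.488.

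Osmr and Lifr lie next to each other and together span 384 kb of chromosome 15, not counting their direct neighbours. Rictor, beyond Osmr, had 1134, 1267, 1160 and 1163 counts in control normoxia, control hypoxia, IFN-γ normoxia and IFN-γ hypoxia, and a log2 change of -0.03 with IFN-γ that did not pass. Egflam, beyond Lifr, had 1, 2, 22 and 18 counts in that order and rose with IFN-γ at an edgeR adjusted p of 0.00040, on control libraries at or under the floor of 3 counts.

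Il13ra1 (NCBI gene 16164, chrX:36112110-36171259, plus strand) showed the largest changes of the set with both stimuli. It binds interleukin-13 and, with Il4ra, forms the receptor that reads both interleukin-13 and interleukin-4. It had 1105 counts in control normoxia, 1378 in control hypoxia, 2663 in IFN-γ normoxia and 3527 in IFN-γ hypoxia. Both IFN-γ libraries exceeded both controls, and at each treatment the hypoxia library was the higher. Il13ra1 rose with IFN-γ by 1.33 (SE 0.0713, 2.51-fold) at an edgeR adjusted p of 4.09e-74, and this call was kept in all 7 alternative fits, with adjusted p up to 0.00898. None of the 31-base words in its transcript occurs in transcripts of another gene.

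With hypoxia Il13ra1 rose by 0.37 (SE 0.0706, 1.29-fold) at an edgeR adjusted p of 6.56e-06. The call was kept in 5 of the 7 alternatives and lost when the IFN-γ term was left out, at adjusted p of 0.787 by edgeR and 0.909 by DESeq2. The change with IFN-γ was 1.28 (1.18 to 1.39) under normoxia and 1.37 (1.28 to 1.46) under hypoxia, with a difference of 0.09 (-0.05 to 0.22). With both stimuli its level was 3.23-fold that of the untreated library.

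Il4ra, the chain that completes this receptor, had 526 counts in control normoxia, 593 in control hypoxia, 523 in IFN-γ normoxia and 604 in IFN-γ hypoxia. Its log2 change with IFN-γ was 0.02 (edgeR adjusted p = 0.978). Per length, the ratio of Il13ra1 to Il4ra was 3.40, 3.76, 8.23 and 9.44 in the same order. Il2rg, which completes the other interleukin-4 receptor, had 96, 99, 93 and 125 counts, and Il13ra2, a second receptor for interleukin-13, had at most 8.

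The genes whose levels over the 4 libraries lay nearest to those of Il13ra1 were Trim30d, Mndal and Rsad2, at Euclidean distances of 0.0625, 0.0848 and 0.116 between centred log2 CPM, among 10442 genes. Rsad2, an antiviral gene known to be induced by interferons, had 2929, 3869, 7542 and 9068 counts in control normoxia, control hypoxia, IFN-γ normoxia and IFN-γ hypoxia. Trim30d had 211, 257, 497 and 634 counts, and Mndal had 146, 169, 349 and 459. Both belong to gene families with close copies, so their counts are uncertain.

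The transcripts of most ligands of these receptors were not detectable at this depth. Of 40 ligand genes, 11 passed the filter and 28 had at most 3 counts in every library. Ifng had 0 counts in every library, including those with added IFN-γ protein, and 20 of 21 interferon genes had at most 3, the exception being Ifnz with 6, 17, 11 and 10 in control normoxia, control hypoxia, IFN-γ normoxia and IFN-γ hypoxia. How reads that match several genes of the Ifna family were counted was not given in the sources used here. Il4 and Il13 had at most 3 counts in any library. Il6 had 12, 2, 12 and 12 counts and Osm 2, 7, 4 and 5.

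Among the ligand genes, 3 rose and 0 fell with IFN-γ, and 1 rose and 1 fell with hypoxia. DESeq2 called 1 raised and 0 lowered with IFN-γ, and 0 in either direction with hypoxia. The count of 0 lowered with IFN-γ was also 0 at an unadjusted p under 0.05. These counts, like those of the lists that follow, stand beside the shares of all tested genes given above (4.76% raised and 1.10% lowered with IFN-γ, 8.21% and 6.83% with hypoxia). Lif, which is read by Lifr with gp130, had 669 counts in control normoxia, 941 in control hypoxia, 1412 in IFN-γ normoxia and 1554 in IFN-γ hypoxia. It rose with IFN-γ by 0.91 (SE 0.0803, edgeR adjusted p = 1.5e-27) and with hypoxia by 0.30 (SE 0.0800, edgeR adjusted p = 0.00252). Lif was thus expressed at 4.44 to 10.4 RPKM beside Lifr at 0.328 to 0.482.

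Clcf1, a gp130 cytokine read through Cntfr and Lifr, had 1199, 959, 1380 and 1233 counts in control normoxia, control hypoxia, IFN-γ normoxia and IFN-γ hypoxia. It rose with IFN-γ by 0.29 (SE 0.0785, edgeR adjusted p = 0.00436) and fell with hypoxia by 0.24 on the log2 scale (edgeR adjusted p = 0.0210). Il24, a ligand of the interleukin-10 family that is read through Il20rb and not Il10rb, had 41, 49, 72 and 126 counts in that order and rose with IFN-γ by 1.12 (SE 0.267, edgeR adjusted p = 0.000747).

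**Figure D5:**
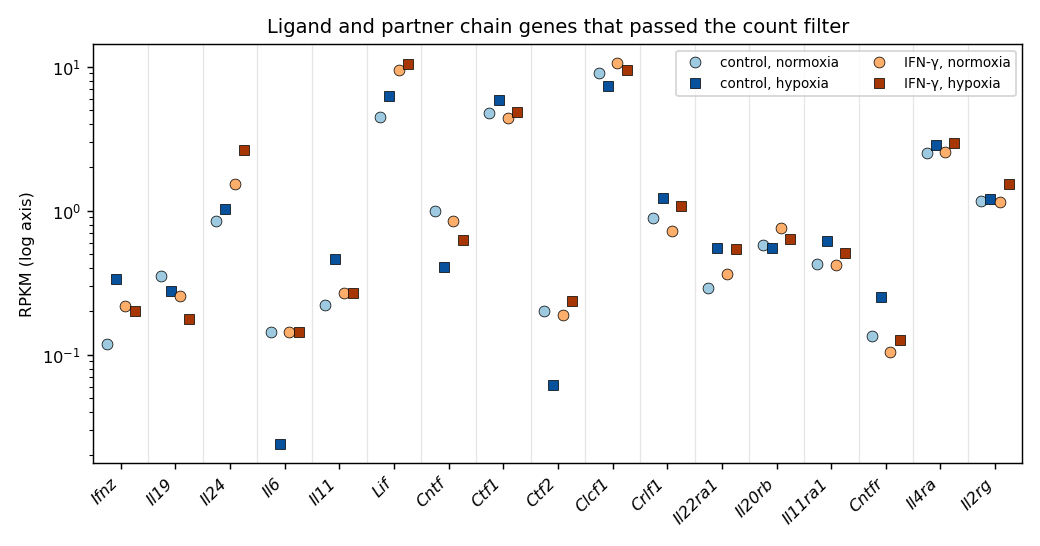
Levels in RPKM on a log axis of the ligand genes and partner chains that passed the filter on low counts, with 1 point for each library. Lif lies at 4.44 to 10.4 RPKM with both IFN-γ libraries highest, and Il4ra at 2.53 to 2.94.

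Of 14 further chains of these and related receptors, not all of which pair with a member of the set, 6 passed the filter. By edgeR 0 were called with either stimulus. At an unadjusted p under 0.05, 0 changed with IFN-γ and 1 rose with hypoxia, and DESeq2 called 0 for both. Il10ra and Ifnlr1, which bind interleukin-10 and the lambda interferons ahead of Il10rb, had 0 counts in every library. A count of 0 allows up to 3 if counts are independent. Il22ra1, the interleukin-22 chain, had 26 counts in control normoxia, 49 in control hypoxia, 32 in IFN-γ normoxia and 48 in IFN-γ hypoxia. Il11ra1, the interleukin-11 chain, had 66, 95, 64 and 78, and Cntfr had 13, 24, 10 and 12, in the same order.

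Of 23 other cytokine receptor genes, 9 passed the filter, 3 rose with IFN-γ and 0 fell. DESeq2 called 1 raised and 0 lowered, and an unadjusted p under 0.05 gave 0 lowered. Il15ra, which presents interleukin-15, had 277 counts in control normoxia, 275 in control hypoxia, 1503 in IFN-γ normoxia and 1373 in IFN-γ hypoxia, and rose by 2.39 (SE 0.0943, edgeR adjusted p = 3.79e-136). Its change was larger than that of any of the 10 receptor genes. Il12rb1 rose by 0.44 (edgeR adjusted p = 4.17e-05) and F3, the class II receptor that starts blood clotting, by 0.36 (edgeR adjusted p = 0.00157). With hypoxia 0 of the 9 were called by edgeR or DESeq2, against 1 higher and 1 lower at an unadjusted p under 0.05.

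Downstream of the receptors, 7 of 20 listed kinases, STAT proteins and brakes of signalling rose with IFN-γ and 0 fell. Among the genes called, the largest log2 changes were those of Stat2 (1.51), the feedback brakes Socs1 (1.5) and Socs3 (0.94), Irf9 (0.82), Stat3 (0.79) and Usp18 (0.78). Jak2, the kinase bound to Ifngr2, rose with IFN-γ by 0.56 and with hypoxia by 0.30. With hypoxia 5 of the 20 rose and 0 fell, the others being Jak3 (0.45), Stat6 (0.34), which acts below Il4ra and Il13ra1, Jak1 (0.29) and Stat2 (0.25). At an unadjusted p under 0.05, 0 fell with IFN-γ and 1 fell with hypoxia, and DESeq2 called 0 lowered for both, with 7 raised by IFN-γ and 3 by hypoxia.

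Of 5 genes that act on receptor proteins by shedding or turnover, 0 were called with either stimulus by edgeR or DESeq2, and 1 was higher with hypoxia at an unadjusted p under 0.05. Adam17, a protease that sheds Il6ra among others, had 3891 counts in control normoxia, 4290 in control hypoxia, 3789 in IFN-γ normoxia and 4120 in IFN-γ hypoxia. Receptor protein at the cell surface was not part of these data.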

How the data were processed

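RNA-seq of 4 MC38 libraries was analysed. Reads were aligned with HISAT2, and the submitters' processing notes name featureCounts and the build mm10. The values the authors deposited are raw read counts, whole numbers with no scaling or filter. Tool versions, annotation, strand setting and handling of reads that match several genes were not given in the sources used here.

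Counts were scaled with TMM and genes were kept by edgeR's filter (minimum 10 counts), leaving 13580. The additive model was fitted with edgeR 4.0.16 in R 4.3.3 by the quasi-likelihood test with Benjamini-Hochberg adjustment at 0.05, with 1 residual degree of freedom per gene. The common dispersion was 0.00222, a coefficient of variation of 4.71%. Single pairs were compared as log2 ratios with 0.5 counts added, with exact 95% Clopper-Pearson intervals. These intervals and the floor of 3 counts cover counting error only, since reads without molecular identifiers are not independent molecules. The floor was not adjusted for fragments that may have entered as 2 reads. Symbols matched 25275 of 27179 IDs in the NCBI table for GRCm38.p6. RPKM used the union of GENCODE M21 exons. The edgeR fit was tested on simulated counts with known IFN-γ changes, a fixed dispersion, no hypoxia effect and no departure from additivity. Intervals from counts divided by 2 were chosen after seeing the data.

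Alternatives were DESeq2 1.42.0, its size factors, total counts, other filters, a fit without the other stimulus, other thresholds and the longest transcript as length. All 10 receptor genes are named. From the other lists, called genes are named, at most 6 for each list and stimulus by size of change, with the ligands and partners a receptor needs, direct protein-coding neighbours, and the 3 genes nearest in profile to the receptor gene with the largest change, and 1 signalling gene is not reported here. The receptor genes and lists were chosen with earlier results of these data known.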

Additional observations from a re-analysis of the deposited data

Results flagged for a closer look

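In 5 of the receptor genes, a single pair of libraries moved one way and the matching pair the other way. With 1 library per condition none of these differences was tested. The values are log2 changes, and the difference is hypoxia minus normoxia, or with minus without IFN-γ.

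For Ifnar2 the change with IFN-γ was 0.50 under normoxia and -0.02 under hypoxia, and the change with hypoxia was 0.13 without and -0.39 with IFN-γ, a difference of -0.52 in both readings. For Ifnar1 the change with IFN-γ was 0.03 and -0.18, and that with hypoxia 0.19 and -0.03, a difference of -0.21. For Lifr the change with hypoxia was -0.09 without and 0.36 with IFN-γ, a difference of 0.45 on the lowest counts of the set.

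For Il6st the change with IFN-γ was 0.06 and -0.04, and that with hypoxia 0.00 and -0.10, a difference of -0.10. For Ifngr2 the change with hypoxia was 0.06 and -0.07, a difference of -0.13. The counting intervals of the differences for Lifr, Il6st and Ifngr2 included 0, and that of Ifnar1 did so once the counts were divided by 2.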

How the results depend on the processing

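No paired analysis by replicate number was possible because each condition had 1 library. The additive fit already compares IFN-γ with control within each oxygen level, and the fits without the other stimulus are its unpaired form. Leaving 1 library out of the additive fit leaves no residual degrees of freedom, so those settings give only the single-pair values of the report. Depth limits Lifr most, and no setting replaces the missing replicates.

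Of 3 receptor genes raised by IFN-γ, 2 remained called with DESeq2 and 1 in edgeR without the oxygen term. The 1 lowered gene became 0 with DESeq2 size factors in edgeR, with DESeq2, without a filter, with a minimum of 10 counts in each library, without the oxygen term by either tool, and with a log2 change of at least 0.5. Of 2 raised by hypoxia, 1 was called with DESeq2 and without a filter, and 0 without the IFN-γ term by either tool or with a log2 change of at least 0.5. The cause was not tested. The Il6st change with IFN-γ turned from 0.01 to -0.01 (-0.008) with total counts and passed in neither. Of the 140 log2 values of receptor genes in other fits, 139 kept their direction, of which 16 lost the call and 123 did not change in whether they were called (Lifr with hypoxia had no adjusted p in DESeq2). Of the 40 single-pair values, which have no test, 8 had the opposite sign to the additive fit. Mean RPKM moved with the longest transcript to 16.8 for Ifngr1, 8.40 for Ifnar1, 8.92 for Il10rb, 4.30 for Il6st and 2.38 for Osmr.

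Over all genes tested, 647 were raised and 149 lowered by IFN-γ, against 353 and 16 with DESeq2, 239 and 3 in edgeR and 317 and 6 in DESeq2 without the oxygen term. Without a filter 71 and with a minimum of 10 counts in each library 74 were lowered, and 99 with DESeq2 size factors. Hypoxia raised 1115 and lowered 927, against 360 and 203 with DESeq2, and 150 and 26 in edgeR and 432 and 358 in DESeq2 without the IFN-γ term.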
